A study of Mus musculus with 21 samples.

Results

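Apoe, Lpl, Spp1, Gpnmb, Lgals3, Igf1, Cst7 and Cd9 belong to the genes that microglia raise in the disease-associated state, and they were measured here in mouse microglia after acute injection of lipopolysaccharide (LPS). The 8 genes were chosen by name, as known members of that state, from the 55487 genes in the table, and all 8 were found. Microglia, the resident macrophages of the brain, came from the striatum of males aged 8 to 10 weeks and were sorted as live, CD11b+, CD45-low, P2RY12+ cells. Their dams were either controls or had undergone maternal immune activation (MIA), a challenge of the immune system in pregnancy whose agent is not named in the labels used here. The offspring received saline or 4500 endotoxin units per gram of LPS, a component of bacterial cell walls that activates Toll-like receptor 4, into the peritoneum 18 hours before collection. The groups compared were control offspring with saline (6 libraries), control offspring with LPS (5), MIA offspring with saline (5) and MIA offspring with LPS (3). 2 further libraries stood outside these groups: MIA saline replicate 6, titled excluded by the submitters, and MIA LPS replicate 4, the single library of batch 2. Strain and litters are not named in the labels used here, so some libraries may share a dam, and p-values reflect only how these libraries vary.

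Disease-associated microglia were described in mouse models of neurodegeneration, where they gather around amyloid deposits and damaged tissue. Entering the state, microglia lower their resting genes, such as those for purine and chemokine receptors, and raise genes for lipid uptake, lysosomal digestion and secreted matrix and growth factors, a step that in part needs the lipid receptor TREM2. Of the 8 genes, Apoe encodes the lipid carrier apolipoprotein E and Lpl the lipase that frees fatty acids from lipoproteins. Spp1 encodes osteopontin, a secreted ligand of integrins and CD44, and Igf1 a secreted growth factor. Lgals3 encodes galectin 3, which binds glycans and gathers at damaged lysosomes, Gpnmb a membrane glycoprotein of late endosomes and lysosomes, Cst7 the cysteine protease inhibitor cystatin F, and Cd9 a tetraspanin of the cell surface. The data bear on how much of this gene set acute LPS moved, and in which direction.

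LPS split the 8 genes. In control offspring 4 were higher after LPS (Spp1, Gpnmb, Lgals3, Cst7), 3 were lower (Lpl, Igf1, Cd9) and Apoe was not called. In MIA offspring the same 4 were higher, Lpl and Cd9 were lower, and Apoe and Igf1 were not called. Genes were called where edgeR's quasi-likelihood test gave a Benjamini-Hochberg adjusted p under 0.05, over 14741 genes tested. LPS moved a large part of all genes: 44.6% were called in control offspring, 23.3% higher and 21.3% lower, and 39.1% in MIA offspring, 20.8% higher and 18.3% lower. LPS and saline libraries did not overlap for 6 of the 8 genes in each offspring group, against 28.9% of all genes in control and 36.5% in MIA offspring. The median log2 fold change of the 8 genes was 1.52 in control and 1.81 in MIA offspring, where the median of all genes tested was -0.00 and 0.02.

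All 8 genes passed the filter on low counts, but not by the same libraries. Gpnmb and Lgals3 would not have passed without LPS libraries, nor Igf1 without saline libraries, so a difference in level was partly built in by the filter. The calls of these 3 and the counts and medians above are a description and not support. No saline library reached the filter level for Gpnmb, and for Lgals3 2 of 6 control saline and 0 of 5 MIA saline libraries did. Igf1 reached it in 6 of 6 control saline and 3 of 5 MIA saline libraries but in 0 of 5 control LPS libraries and 1 of 3 MIA LPS libraries. With no filter on low counts, edgeR gave adjusted p-values in control and MIA offspring of 1.56e-08 and 4.49e-08 for Gpnmb, 2.54e-05 and 0.000151 for Lgals3, and 3.91e-05 and 0.0508 for Igf1. Total counts of the 19 compared libraries ran from 9.85 to 19.0 M (units of 1e+06), with 43.0% to 53.8% of counts in a single ribosomal RNA gene. The library of batch 2 had 11.4 M counts and the one titled excluded 5.29 M. MIA LPS replicate 2 stood apart from the other libraries in earlier results of these data, and gene list counts that change by over 1.5 times without it are named beside the list.

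The promoters of the 4 genes that were higher in both offspring groups are shown because these genes moved together. Each window runs from 250 bases before to 50 bases after the start annotated by RefSeq on GRCm38.p6, on the + strand, with motif matches in capitals, 5′ to 3′.
Spp1 (chr5:104434861-104435160): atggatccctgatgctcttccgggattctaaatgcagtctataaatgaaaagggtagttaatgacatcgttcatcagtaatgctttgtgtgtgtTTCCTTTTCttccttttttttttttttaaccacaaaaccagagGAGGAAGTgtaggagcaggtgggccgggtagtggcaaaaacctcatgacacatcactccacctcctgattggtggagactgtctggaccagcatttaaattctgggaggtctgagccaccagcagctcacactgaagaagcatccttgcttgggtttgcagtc
Gpnmb (chr6:49036268-49036567): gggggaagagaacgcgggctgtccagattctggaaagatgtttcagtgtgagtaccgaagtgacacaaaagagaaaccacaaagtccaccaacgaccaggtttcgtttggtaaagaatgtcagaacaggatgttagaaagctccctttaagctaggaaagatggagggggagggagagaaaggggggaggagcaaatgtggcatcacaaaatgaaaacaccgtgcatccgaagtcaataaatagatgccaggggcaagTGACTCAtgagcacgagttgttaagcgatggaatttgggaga
Cst7 (chr2:150570165-150570464): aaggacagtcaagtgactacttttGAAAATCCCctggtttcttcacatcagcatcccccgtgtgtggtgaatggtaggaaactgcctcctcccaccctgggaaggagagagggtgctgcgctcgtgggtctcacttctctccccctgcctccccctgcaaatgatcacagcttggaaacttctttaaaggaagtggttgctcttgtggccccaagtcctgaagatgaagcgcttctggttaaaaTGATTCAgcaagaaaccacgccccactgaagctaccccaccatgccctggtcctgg
Lgals3 (chr14:47373610-47373909): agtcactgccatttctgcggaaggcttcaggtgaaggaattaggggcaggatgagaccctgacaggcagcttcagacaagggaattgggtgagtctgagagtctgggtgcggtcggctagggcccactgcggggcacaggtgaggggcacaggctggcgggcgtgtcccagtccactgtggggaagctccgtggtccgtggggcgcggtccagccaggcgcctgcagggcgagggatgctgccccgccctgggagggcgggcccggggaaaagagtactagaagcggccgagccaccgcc
Motifs were searched on both strands, and of 32851 such windows from 27025 genes, 1.11% held the kappa B letters GGGANTTTC, 7.81% the AP-1 letters TGANTCA, 8.56% the core GAAANNGAA of the interferon-stimulated response element (ISRE) and 3.20% the PU.1 core GAGGAAGT. The Cst7 window held 1 kappa B match at -226 to -218 from the start (position 0) and 1 AP-1 match at -6 to 0. The Spp1 window shown held an ISRE core match at -156 to -148 and a PU.1 core match at -113 to -106. Another Spp1 window, which starts at base 104435942 and is not shown, held none of the letters searched. In the Gpnmb window an AP-1 match lay at 8 to 14, past the start. The Lgals3 window, at 67% GC the richest of the 10 windows of the 7 genes matched, held none of the letters searched, and its start lies inside the span that GENCODE gives the gene. AP-1 letters read the same on both strands, and no match overlapped another. E-box (CACGTG, 7.15% of windows), M-box (TCATGTG, 3.77%) and C/EBP letters (TTGCGCAA, 0.183%) were in none of the 10 windows. Among genes that were not higher, Igf1 had an AP-1 match and Cd9 and Apoe an ISRE core match each, while Lpl had no window to search. These matches are letters in a window, not measured binding.

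Spp1, on chromosome 5 at 104435118 to 104441050 of GRCm38 (+ strand, 5.93 kb), went from near 0 to one of the abundant transcripts of the 8. Levels are counts per 1e+06 counts (CPM) scaled by TMM, and ± after a mean is an SD. Control saline libraries held 0 to 2.94 CPM (median 1.01). Control LPS libraries, replicates 1 to 5, held 157, 166, 182, 169 and 150 CPM. MIA saline libraries held 0.614, 0.161, 0.203, 1.17 and 2.00 CPM, and MIA LPS libraries 184, 249 and 252 CPM. Every LPS library lay above every saline library by a wide gap. Means went from 1.13 ± 1.11 (n = 6) to 165 ± 12.5 CPM (n = 5) in control and from 0.829 ± 0.770 (n = 5) to 228 ± 38.5 CPM (n = 3) in MIA offspring. The log2 fold change, with its standard error after ± here and below, was 7.22 ± 0.52 in control (149.6-fold, adjusted p = 5.69e-09, higher in 5 of 5 LPS libraries) and 8.04 ± 0.61 in MIA offspring (264.0-fold, adjusted p = 1.66e-08, 3 of 3). The size in MIA offspring rested in part on saline replicate 5, without which it was 8.69, and limma-voom gave 8.10 in control offspring. A transcript annotated on the same strand inside Spp1, Gm42793, held 66 counts over all libraries beside 21391 for Spp1.

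Gpnmb (chromosome 6, 49036546 to 49070929, + strand) was at or near 0 in every saline library. It held a single count in 1 of 6 control saline libraries and none in the 5 MIA saline libraries. After LPS, control libraries held 1.19, 3.91, 0.208, 1.81 and 2.96 CPM and MIA libraries 0.507, 4.27 and 3.24 CPM. Every LPS library held some Gpnmb. The lowest of them, control LPS replicate 3, held 2 counts and was the shallowest of the 19, though CPM values are already scaled by depth. In control offspring 153 counts after LPS stood against 1 after saline, a depth-scaled ratio of 191 with a 95% counting interval of 33.8 to 7603.4. In MIA offspring 114 counts stood against 0, at least 63.5-fold higher if the saline group held the floor of 3 counts. Such intervals and floors cover counting error only. Gpnmb was called in control (adjusted p = 3.20e-06) and in MIA offspring (adjusted p = 6.52e-06), after passing the filter through LPS libraries alone. The fitted log2 values, 6.67 ± 0.91 and 8.23 ± 1.16, depend on how counts of 0 are smoothed and are no bound: limma-voom gave 5.25 and 5.54, and the control value was 7.84 without control saline replicate 4, which held the single count.

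Lgals3 (chromosome 14, 47367751 to 47386160, + strand) was under 2 CPM in all saline libraries and spread widely after LPS. Control saline libraries held 0.0695 to 1.52 CPM (median 0.316) and MIA saline libraries 0.526, 0.161, 0.203, 0.344 and 0.733 CPM. Control LPS libraries held 9.26, 10.8, 3.53, 18.2 and 11.4 CPM, and MIA LPS libraries 14.2, 3.98 and 7.59 CPM. LPS libraries varied widely among themselves, but none overlapped a saline library. The log2 fold change was 4.19 ± 0.52 in control (18.3-fold, adjusted p = 9.73e-07, 5 of 5 libraries higher) and 4.41 ± 0.63 in MIA offspring (21.2-fold, adjusted p = 9.28e-06, 3 of 3). Without control saline replicate 5, the highest saline library, the control value was 4.81, and with limma-voom it was 5.01.

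Cst7 (chromosome 2, 150570415 to 150578944, + strand) was low but present in every saline library. In saline libraries Cst7 ran, for control offspring, from 1.34 to 3.53 CPM (median 2.12) and stood, for MIA offspring, at 2.98, 1.45, 1.35, 2.68 and 1.47 CPM. After LPS, control libraries held 12.6, 13.3, 20.97, 17.6 and 8.33 CPM and MIA libraries 16.7, 13.5 and 17.8 CPM. The lowest LPS library lay above the highest saline library in both offspring groups. The log2 fold change was 2.64 ± 0.26 in control (6.21-fold, adjusted p = 4.92e-09, 5 of 5 higher) and 3.02 ± 0.30 in MIA offspring (8.09-fold, adjusted p = 1.33e-08, 3 of 3).

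**Figure D1:**
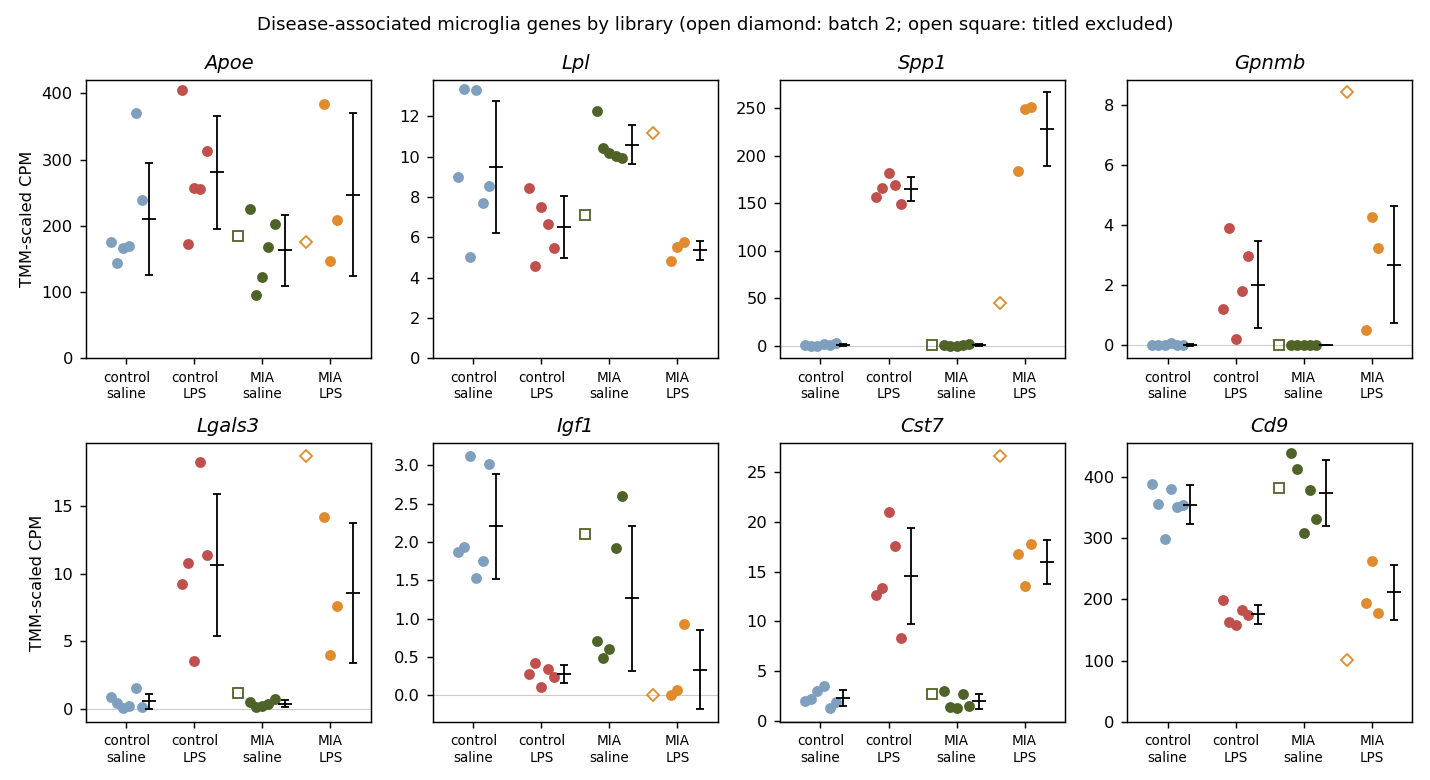
TMM-scaled CPM (vertical axis, linear, its own scale per gene) of the 8 genes in each library, by group, with the mean and SD of the batch 1 libraries beside each group; the open diamond is the batch 2 library and the open square the library titled excluded, both outside the means. Spp1, Gpnmb, Lgals3 and Cst7 lie higher in every LPS library than in any saline library, Cd9 lies lower, and Apoe overlaps throughout.

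Apoe (chromosome 7, 19696109 to 19699188, - strand), one of the genes that define the disease-associated state, was abundant with or without LPS. Among control libraries Apoe was at 144 to 371 CPM after saline (median 172) and at 405, 173, 257, 256 and 313 CPM after LPS. MIA saline libraries held 226, 95.9, 122, 168 and 203 CPM, and MIA LPS libraries 384, 147 and 208 CPM. LPS and saline libraries overlapped in both offspring groups, and only 1 LPS library of each lay above all its saline libraries. The log2 fold change was 0.41 ± 0.29 in control (adjusted p = 0.272) and 0.60 ± 0.35 in MIA offspring (adjusted p = 0.191), which does not show that Apoe held still.

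Lpl (chromosome 8, 68880491 to 68907448, + strand) was lower after LPS by a small amount. Control saline libraries held 5.00 to 13.4 CPM (median 8.75) and control LPS libraries 8.45, 4.57, 7.48, 6.63 and 5.45 CPM. MIA saline libraries held 12.3, 10.4, 10.2, 10.0 and 9.93 CPM, and MIA LPS libraries 4.82, 5.50 and 5.74 CPM. The control groups overlapped, with 1 of 5 LPS libraries below all saline libraries, while in MIA offspring all 3 lay below. Lpl fell by 0.54 ± 0.21 on the log2 scale in control (adjusted p = 0.0426) and by 0.98 ± 0.27 in MIA offspring (adjusted p = 0.00458). The control call was lost without control LPS replicate 2 (-0.43), 4 (-0.55) or 5 (-0.48) or control saline replicate 1 (-0.56), 2 (-0.42) or 4 (-0.42). With the batch 2 library, at 11.2 CPM, counted as a MIA LPS replicate, the MIA call was lost too (-0.65, adjusted p = 0.0756).

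Igf1 (chromosome 10, 87858265 to 87937042, + strand) was lower after LPS in control offspring, opposite to its direction in disease-associated microglia. Control saline libraries held 1.54 to 3.13 CPM (median 1.90) and control LPS libraries 0.271, 0.421, 0.104, 0.335 and 0.240 CPM. MIA saline libraries held 0.701, 0.482, 0.608, 1.93 and 2.60 CPM, and MIA LPS libraries 0.00, 0.0723 and 0.924 CPM. The control groups lay far apart, and in MIA offspring replicate 3 of LPS sat among the saline libraries. Igf1 fell by 2.92 ± 0.62 on the log2 scale in control (adjusted p = 0.000377, lower in 5 of 5 LPS libraries). In MIA offspring the log2 fold change was -1.84 ± 0.75 (adjusted p = 0.0526, 2 of 3 libraries below all saline ones), which missed the threshold. That value turned on single libraries: it was -4.75 without MIA LPS replicate 3 and passed the threshold then. It also passed without MIA saline replicate 1 (-1.98), 2 (-2.05) or 3 (-2.02), MIA LPS replicate 4 (-1.88) or control LPS replicate 3 (-1.88). Each MIA LPS library lay below the MIA saline libraries that share the second number of its ID label, and with that number as a block the value was -2.71 (adjusted p = 0.00907). The group sums behind these values were small, 196 and 21 counts in control and 90 and 15 in MIA offspring, saline first. The antisense transcript Igf1os held 1 count over all libraries.

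Cd9 (chromosome 6, 125460266 to 125494791, - strand), at the highest CPM of the 8 after saline, was lower after LPS with little spread between libraries. Cd9 was at 298 to 389 CPM (median 355) in control saline libraries and at 198, 163, 158, 183 and 174 CPM in control LPS libraries. MIA saline libraries held 439, 413, 309, 379 and 331 CPM, and MIA LPS libraries 193, 263 and 178 CPM. LPS and saline libraries did not overlap in either offspring group. Cd9 fell by 1.02 ± 0.13 on the log2 scale in control (fold 0.494, adjusted p = 2.53e-07, 5 of 5 lower) and by 0.82 ± 0.15 in MIA offspring (fold 0.565, adjusted p = 0.000104, 3 of 3). Overlapping transcripts on the other strand, Gm26728 and Gm28809, held 353 and 262 counts over all libraries beside 78661 for Cd9, and whether reads were counted by strand is not given in the sources used here.

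**Figure D2:**
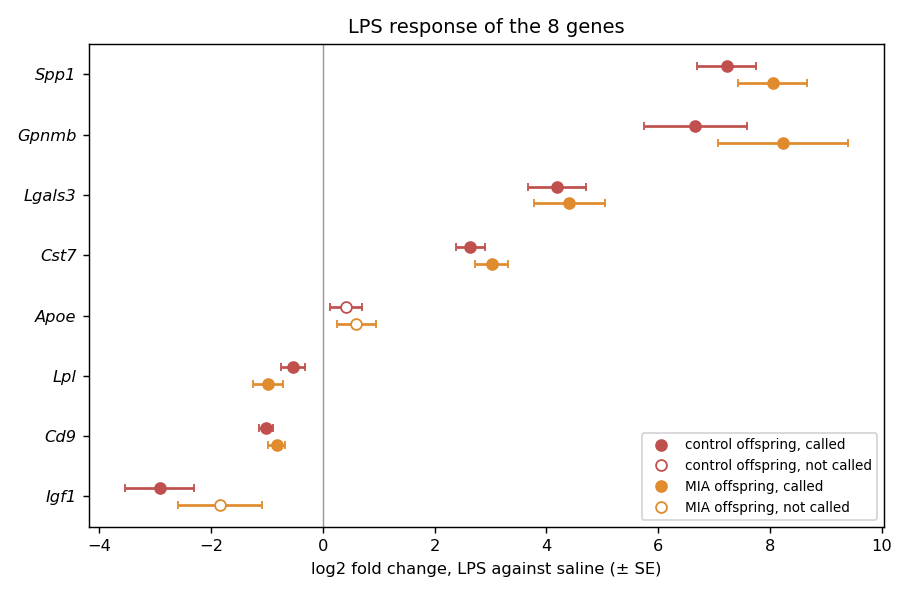
Log2 fold change of LPS against saline (horizontal axis) with its standard error for each gene in control and MIA offspring; filled points were called and open points were not. The 4 genes that were higher stand at the top from 8.23 down to 2.64, Apoe at 0.41 and 0.60, and Lpl, Cd9 and Igf1 on the negative side; the Gpnmb points are fitted to counts near 0 and depend on smoothing.

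The order of the genes by level changed with LPS. Levels between genes were compared per length, as transcripts per 1e+06 (TPM) computed from counts and exon lengths, a scale of which the ribosomal RNA gene took 47.4% to 58.7%. After saline in control offspring Cd9 (497 ± 59.7 TPM, n = 6) and Apoe (277 ± 88.4) stood far above the other genes, although their libraries overlapped each other. Cst7 followed at 6.89 TPM, then Lpl (2.55), Spp1 (1.93), Lgals3 (0.801) and Igf1 (0.655), each overlapping the next, and Gpnmb (0.00494) below all. After LPS in control offspring Apoe (355 ± 102 TPM, n = 5), Spp1 (273 ± 23.3) and Cd9 (234 ± 22.7) led, each overlapping the next in order. Cst7 (40.1 TPM) and Lgals3 (15.7) came next, and Lpl (1.68), Gpnmb (0.869) and Igf1 (0.0768) last, each of these overlapping the next. The order in MIA offspring after LPS began with Spp1 (343 ± 73.6 TPM, n = 3), then Apoe (280) and Cd9 (259), again overlapping, and went on with Cst7 (39.7), Lgals3 (11.1), Lpl (1.26), Gpnmb (1.04) and Igf1 (0.0781). After saline the MIA order was that of control offspring, from Cd9 (523 ± 94.0 TPM, n = 5) and Apoe (219) to Gpnmb, which had no count.

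No difference between MIA and control offspring passed the threshold for any of the 8 genes, after saline, after LPS or in the size of the LPS response. Of all genes 0% were called for MIA against control after saline, 0% after LPS and 0% for the difference of the LPS responses, and at an unadjusted p under 0.05 there were 415, 825 and 491 of 14741. DESeq2 called 6, 0 and 0 genes and limma-voom none. After LPS, libraries of the offspring groups did not overlap for 1 of the 8 genes, Spp1, against 2.68% of all genes: the 3 MIA libraries (184 to 252 CPM) lay above the 5 control libraries (150 to 182 CPM). The log2 difference was 0.47 ± 0.45 (adjusted p = 0.958), about the size of its standard error and not called. Cd9 differed by 0.27 ± 0.15 (adjusted p = 0.900) and Lpl by -0.28 ± 0.26 (adjusted p = 0.958) after LPS. After saline the log2 differences of MIA from control ran from -1.17 ± 1.37 (Gpnmb) to 0.16 ± 0.21 (Lpl), with none of the 8 separated, against 0.4% of all genes.

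The LPS response in MIA offspring less that in control offspring was not called for any of the 8 genes. The estimate exceeded its standard error for Lpl and Igf1 and was near or under it for the other genes. For the genes with smaller standard errors it was 0.19 ± 0.19 (Cd9), 0.38 ± 0.40 (Cst7), -0.44 ± 0.34 (Lpl) and 0.18 ± 0.46 (Apoe) on the log2 scale. For the others it was 0.82 ± 0.83 (Spp1), 0.21 ± 0.83 (Lgals3), 1.07 ± 0.96 (Igf1) and 1.57 ± 1.67 (Gpnmb). The adjusted p was 0.9999 for all 8. The errors leave room for differences of several fold for the last 4 and for smaller differences in the others, so that like responses were not shown for any of the 8. The 2 LPS comparisons share no library, while each shares its groups with the comparisons of MIA and control.

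Other genes that disease-associated microglia raise also moved in both directions, with more higher than lower. Of 32 such genes besides the 8, 29 passed the filter, and 17 were higher, 6 lower and 6 not called in control offspring, with the same counts in MIA offspring. Their median log2 fold change was 0.76 in each. Together with the 8, 37 genes tested gave 21 higher, 9 lower and 7 not called in control and 21, 8 and 8 in MIA offspring. Of all genes, 23.3% were higher and 21.3% lower in control, and 20.8% and 18.3% in MIA offspring. The 6 lower of 29 lie near that share of all genes, and the 17 higher above it. Mamdc2, Atp6v0d2 and Dkk2 did not pass the filter. The largest rises were in Ch25h, which makes 25-hydroxycholesterol (5.91 ± 0.58 in control, 5.77 ± 0.67 in MIA offspring), the inhibitory receptor gene Lilrb4a (3.96 ± 0.16 and 4.17 ± 0.18), the chemokine gene Ccl3 (2.71 ± 0.26 and 2.71 ± 0.30) and Cd63, a tetraspanin of lysosomes (2.62 ± 0.14 and 2.49 ± 0.16). Lilrb4a went from 18.7 ± 2.92 to 291 ± 53.5 CPM in control offspring. Ccl3 and Lilrb4a have close copies, and how reads were shared among them is not given in the sources used here.

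The falls in that list included Trem2, the receptor on which part of the disease-associated state depends. Trem2 went from 291 ± 95.9 to 82.7 ± 15.2 CPM in control offspring and from 258 ± 74.9 to 85.3 ± 36.8 CPM in MIA offspring. Trem2 fell by 1.82 ± 0.25 on the log2 scale (adjusted p = 2.95e-06, 5 of 5 libraries) and by 1.60 ± 0.30 (adjusted p = 0.000221, 3 of 3). The largest falls beside it were in the adhesion gene Cadm1 (log2 fold change -2.05 ± 0.13 in control, -2.12 ± 0.17 in MIA offspring), the chemokine gene Ccl6 (-1.79 ± 0.23 and -1.61 ± 0.28) and Ctsd, encoding the lysosomal protease cathepsin D (-1.31 ± 0.14 and -1.06 ± 0.17). Not called in control offspring were the TREM2 adaptor gene Tyrobp (0.03 ± 0.14), the lysozyme gene Lyz2 (0.02 ± 0.16), Cd68 (-0.12 ± 0.19), Itgax (0.18 ± 0.33), Clec7a (-0.63 ± 0.32) and Ctsb (0.25 ± 0.12). The called genes were not the same in both offspring groups. Ctsb was higher in MIA offspring (0.56 ± 0.15), while Fabp5 was higher in control (1.22 ± 0.43) and not called in MIA offspring (0.80 ± 0.50). Itgax and Clec7a, a pair of genes often used to mark disease-associated microglia, stayed under 4 CPM in mean in all 4 groups.

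Resting genes that the disease-associated state lowers were lower after LPS with few exceptions. Of 18 such genes, all tested, 16 were lower, 0 higher and 2 not called in each offspring group, with medians of -1.51 in control and -1.52 in MIA offspring. Of all genes, 21.3% were lower in control and 18.3% in MIA offspring. Gpr34, encoding a receptor related to purine receptors, fell by 4.20 ± 0.28 in control and by 4.90 ± 0.37 in MIA offspring on the log2 scale. P2ry12, the receptor for ADP whose protein was a sort marker here, fell by 3.39 ± 0.17 and 3.33 ± 0.21. Olfml3 fell by 3.22 ± 0.22 and 2.95 ± 0.28, and Siglech by 1.91 ± 0.15 and 1.75 ± 0.19. Sparc (log2 fold change -0.25 ± 0.15 in control, -0.24 ± 0.18 in MIA offspring) and the growth factor receptor gene Csf1r (-0.42 ± 0.18 and -0.30 ± 0.21) were not called. The sort was on P2RY12 protein, and how pure the sorted cells were is not given in the labels used here.

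**Figure D3:**
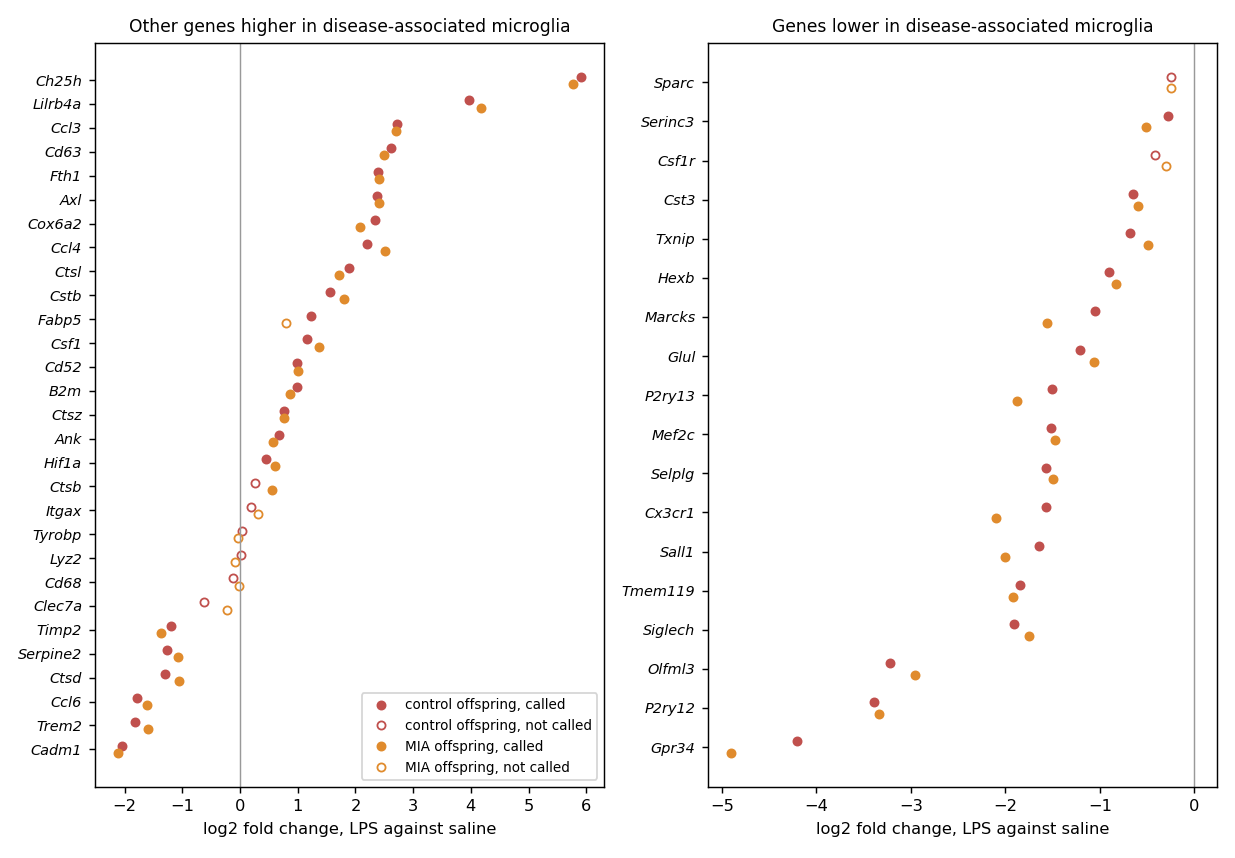
Log2 fold change of LPS against saline (horizontal axes) for 29 other genes higher in disease-associated microglia (left) and 18 genes lower in them (right), in control and MIA offspring; filled points were called and open points were not. In control offspring the left list runs from Ch25h at 5.91 to Cadm1 at -2.05, while in both offspring groups every point of the right list is negative.

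Most receptors and carriers tested that act with apolipoprotein E were called after LPS. Of 10 such genes 8 were tested, and 6 were higher and 2 lower in control offspring, where 44.6% of all genes were called. In MIA offspring, with 39.1% of all genes called, 4 were higher, 2 lower and 2 not called, the cholesterol exporter genes Abca1 (log2 fold change 0.12 ± 0.14) and Abcg1 (0.35 ± 0.20). The largest rise was in Apoc2, encoding the activator of lipoprotein lipase. Apoc2 held 3 counts after saline and 248 after LPS in control offspring, a depth-scaled ratio of 103 (95% counting interval 35.0 to 504.5), and 0 and 134 counts in MIA offspring, at least 74.7-fold higher. The largest fall was in Trem2, with the values above.

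Genes around lipoprotein lipase showed no shared direction. Of 9 genes for its maturation, its inhibitors and fatty acid handling, 7 were tested, and 2 were higher, 2 lower and 3 not called in control, with 1, 2 and 4 in MIA offspring. For this list and those below, the share of all genes called was 44.6% in control and 39.1% in MIA offspring. Counts near these shares do not set a list apart. Plin2, which coats lipid droplets, rose by 3.37 ± 0.18 in control and 3.26 ± 0.21 in MIA offspring, from 10.2 ± 2.13 to 106 ± 31.6 CPM in control. Lmf1, needed for the lipase to mature, fell by 0.78 ± 0.14 and 0.58 ± 0.17.

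Receptors of osteopontin were split, with integrin subunits on both sides. Of 8 genes, 3 were higher, 3 lower and 2 not called in control offspring, and 2, 2 and 4 in MIA offspring. Cd44 was higher by 5.77 ± 0.48 in control and 5.93 ± 0.57 in MIA offspring, going from 0.844 ± 0.320 to 46.2 ± 21.4 CPM in control. The integrin subunit gene Itga5 was higher by 2.68 ± 0.19 and 3.11 ± 0.22, and Itga4 by 1.37 ± 0.47 in control, with a log2 fold change of 1.30 ± 0.56 in MIA offspring (adjusted p = 0.0703). Itga9, encoding an integrin subunit that binds osteopontin, fell by 2.16 ± 0.15 and 2.18 ± 0.18, and Itgav by 0.86 ± 0.12 and 0.85 ± 0.15.

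The galectin list counted 3 of 6 genes higher, 1 lower and 2 not called in control, and 3, 2 and 1 in MIA offspring. Its largest rise was in Lgals3bp, encoding a secreted binding partner of galectin 3 (2.84 ± 0.22 and 2.70 ± 0.25), and its largest fall in control offspring in Mertk, a phagocytic receptor (-0.49 ± 0.11 and -0.69 ± 0.13). Of 5 regulators and relatives of Gpnmb 4 were tested, and Tfec alone was higher (2.45 ± 0.55 and 3.96 ± 0.70), with 3 lower in each offspring group. Mitf, the transcription factor known to drive Gpnmb, fell by 1.13 ± 0.15 in control and 1.67 ± 0.20 in MIA offspring.

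Among 11 receptors, adaptors and binding proteins of insulin-like growth factor 1, 6 were tested, with 4 higher, 1 lower and 1 not called in control and 3, 0 and 3 in MIA offspring. With MIA LPS replicate 2 left out, 1 gene was lower. Igfbp6, encoding a binding protein, went from 0 to 174 counts in control offspring, at least 72.5-fold higher, and was higher by 3.34 ± 0.60 in MIA offspring. Igfbp4 fell by 1.34 ± 0.31 in control, and its log2 fold change in MIA offspring was -0.84 ± 0.37 (adjusted p = 0.0740).

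Of 8 protease targets of cystatin F and other cystatins, 7 were tested, with 5 higher and 2 lower in control and 4 higher, 2 lower and 1 not called in MIA offspring. Ctsl, encoding cathepsin L, rose by 1.88 ± 0.17 in control and 1.71 ± 0.19 in MIA offspring, while Lgmn, encoding legumain, fell by 0.69 ± 0.16 and 0.68 ± 0.20. Ctsc, encoding cathepsin C, an enzyme that cystatin F is known to inhibit, was higher by 1.62 ± 0.19 and 1.58 ± 0.22. Tetraspanins and partners of CD9 gave 4 of 9 genes higher, 3 lower and 2 not called in each offspring group. Cd63 rose, with the values above, and Igsf8, a binding partner of CD9, fell by 0.90 ± 0.24 and 0.78 ± 0.30. Ctsl, Cstb, Cst3, Cd63, Fabp5 and Trem2 stand in more than 1 of these lists.

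**Figure D4:**
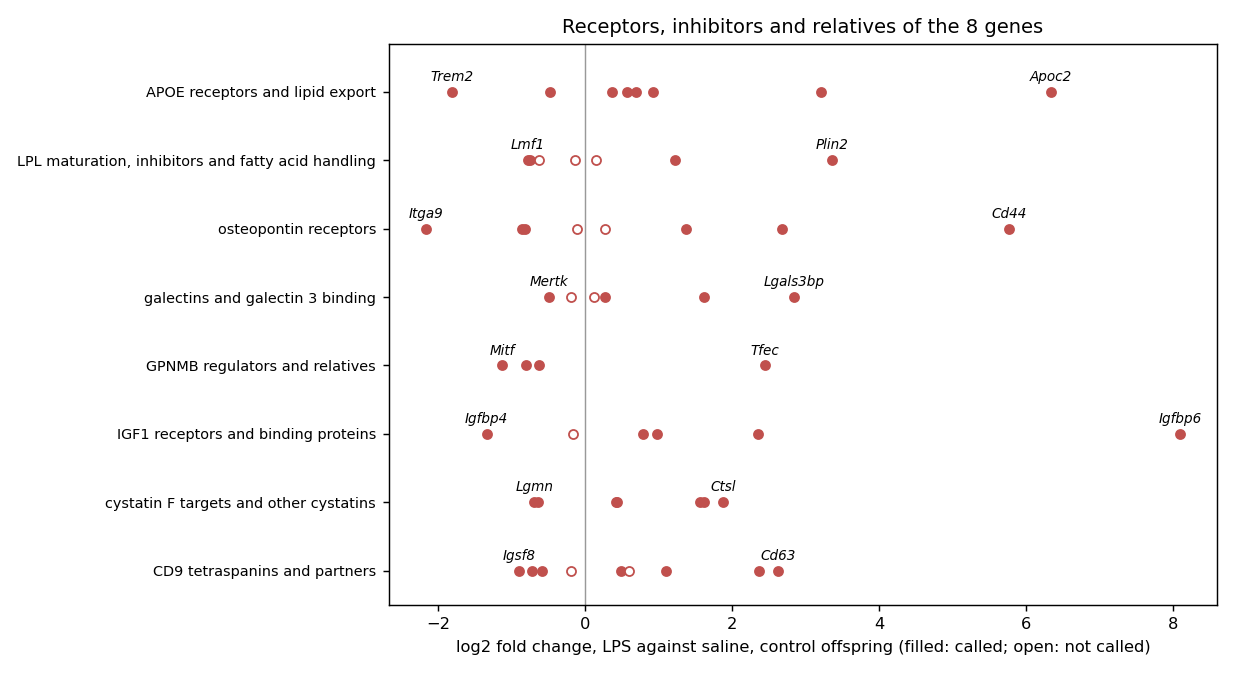
Log2 fold change of LPS against saline in control offspring (horizontal axis) for genes that act with the 8, by list; filled points were called and open points were not, and the largest called rise and fall of each list are named. Every list holds called genes on both sides of 0; the Apoc2 and Igfbp6 points are fitted to saline counts of 3 and 0.

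Genes whose pattern across the 19 libraries was nearest to that of each of the 8 were looked for. Likeness was the root mean square difference of log2 CPM relative to the control saline mean, over 7252 candidate genes. A prior count of 2 smoothed low counts in this log2 CPM. Nearest to Spp1 were Cd244a (1.080), Msr1 (1.12) and Il18rap (1.20), all higher after LPS. Nearest to Gpnmb were Pmvk (0.602), Mt1 (0.633) and Pfkfb3 (0.697). These rose by 3.35, 2.94 and 3.32 on the log2 scale in control offspring, where the fitted value of Gpnmb was 6.67. They match the smoothed values of Gpnmb and not the size of its rise. Nearest to Lgals3 were Ripor2 (0.757), Tnf (0.770) and Irf7 (0.806), and to Cst7 Evi2b (0.383), AI506816 (0.401) and Itga5 (0.428). Nearest to Cd9 were Sh3glb1 (0.147), Lims1 (0.155) and Stxbp5 (0.159). Nearest to Igf1 were Kitl (0.810), Mras (0.814) and Apba1 (0.821), to Lpl Acvr1 (0.254), Fli1 (0.289) and Chordc1 (0.292), and to Apoe Tpgs1 (0.332), Ctsh (0.344) and Cd34 (0.345). Genes with a large LPS effect have more room to differ, so these distances do not rank the 8 against each other.

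Markers of other cells moved with the same contrast. Marker counts here and below stand beside 44.6% of all genes called in control and 39.1% in MIA offspring. The 8 monocyte markers summed to 4.37 to 6.70 CPM in control saline and 3.64 to 7.87 CPM in MIA saline libraries, and to 56.9 to 115 and 52.2 to 85.7 CPM after LPS. Of these markers 7 were higher and Ccr2 lower in each offspring group, with Ly6c2 and Chil3 among those at 0 in MIA saline. The 11 neutrophil markers summed to 0 to 19.9 CPM in control saline and 0 to 0.310 CPM in MIA saline, and to 47.8 to 118 and 33.2 to 98.5 CPM after LPS. Of 8 neutrophil markers tested 6 were higher in control and 8 in MIA offspring, and Mpo was at 0 in all groups but control LPS. The gate on low CD45 and on P2RY12 is meant to leave out monocytes and neutrophils. Spp1, Lgals3, Gpnmb and Cst7 are also known from other myeloid cells. The part of such cells in their rises was not tested.

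The 8 microglia markers summed to 10122 to 13533 CPM in control saline and 9404 to 13115 CPM in MIA saline libraries, and to 4228 to 5036 and 3452 to 5018 CPM after LPS. Of them 7 were lower and Csf1r was not called in each offspring group, and in these bulk samples fewer cells and less RNA per cell cannot be told apart. The 8 markers of border-associated macrophages, cells that hold Apoe at a high level, summed to 21.3 to 57.4 CPM in control saline, 18.7 to 46.9 CPM in control LPS, 16.1 to 35.7 CPM in MIA saline and 12.4 to 31.6 CPM in MIA LPS libraries, with Lyve1 at 0 in the last. In control offspring 1 of the 7 tested was higher, 1 lower and 5 not called, and in MIA offspring 1 was higher, 2 lower and 4 not called, with 1 lower once MIA LPS replicate 2 was left out. The 8 astrocyte markers, of a cell type that also makes apolipoprotein E, summed to 158 to 312 CPM in control saline and 111 to 147 CPM in control LPS, and to 163 to 285 and 119 to 236 CPM in MIA offspring. Of 7 tested, 1 was higher, 1 lower and 5 not called in each offspring group, so the lower sum is not a fall of every marker. Gfap was higher by 3.21 ± 0.70 in control and 3.07 ± 0.77 in MIA offspring. Slc1a3 was the marker called lower, with log2 fold changes of -1.03 ± 0.14 and -0.86 ± 0.17. The part of either cell type in the Apoe values was not tested.

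Oligodendrocyte markers summed to 30.6 to 93.5 CPM, neuron markers to 5.29 to 11.4 CPM, endothelial and mural markers to 8.60 to 29.6 CPM and lymphocyte markers to at most 0.411 CPM over the 19 libraries. Between LPS and saline, 1 of 7 oligodendrocyte markers tested was lower in control and 0 in MIA offspring, 0 of 6 neuron markers were called in either, and 1 of 5 endothelial and mural markers was lower in each. No lymphocyte marker passed the filter, and Cd3e and Nkg7 were among those at 0 in all 4 groups.

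**Figure D5:**
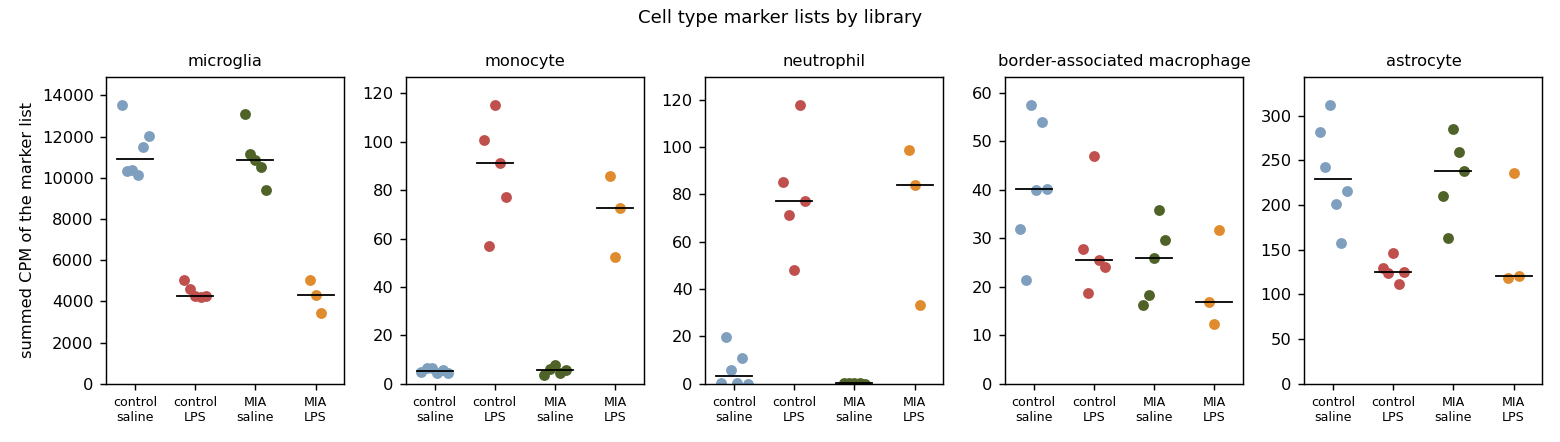
Summed CPM of 5 marker lists (vertical axes, from 0, each on its own scale) in each batch 1 library by group; lines are medians. Monocyte and neutrophil sums are higher in every LPS library than in any saline library, while microglia sums are lower in every LPS library.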

How the data were processed

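Polyadenylated RNA of sorted striatal microglia was sequenced from 5 ng per library with a modified Smart-Seq2 protocol and 9 PCR cycles, per the labels' protocols, with no molecular identifiers stated. The authors deposited expected counts per gene, not normalized, for 21 libraries. The submitters' processing notes list RSEM, STAR and DESeq2, with no version or role, and name no genome build; the build, annotation and strand setting used for counting were not given in the sources used here. Not whole were 6.27% of the deposited estimated counts, and all were rounded before testing. Symbols and coordinates came from GENCODE M21 (GRCm38), which matched 55227 of 55487 identifiers and left 260 unmatched.

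Groups came from the labels. edgeR 4.0.16 in R 4.3.3 was fitted to 20 libraries with 1 mean per group plus batch (robust quasi-likelihood fit, TMM, 15 residual degrees of freedom, common biological coefficient of variation 0.252). The batch term took up the batch 2 library, so contrasts rest on 19 libraries. The library titled excluded stayed out. The filter asked for the CPM that equals 10 counts at the median library size. It had to be reached in as many libraries as the smallest group holds, from any group, with 15 counts in total, and 14741 genes passed. Standard errors are the absolute log2 fold change over the square root of F. Counts were simulated for the LPS comparison in control offspring (14057 genes), with 200 genes changed, each over 1 CPM in mean after saline. Of genes changed by a log2 size of 1, 68% were recovered, and 94% at a size of 2, and 0.0505% of unchanged genes were called. LPS moved far more genes than the simulation did, so these rates need not hold for these data or for genes near 0. Promoter windows came from RefSeq (GRCm38.p6).

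Alternatives were RLE scaling, DESeq2 1.42.0, limma-voom (limma 3.58.1), no filter, no batch term, the library titled excluded kept in, the ribosomal RNA gene left out, blocks by replicate number and by the second number of the ID label, unscaled CPM, and each library left out. The list counts without MIA LPS replicate 2 and the partner lists under RLE and DESeq2 were added after seeing the data. The 8 genes and all gene lists were chosen with earlier results of these data known. Named genes were all 8, the largest called rise and fall in control offspring of each partner list (the 4 largest for the lists of genes raised or lowered in disease-associated microglia), and the 3 genes most like each of the 8 among genes whose mean log2 CPM reached 3. Ctsc, Itgax, Clec7a, Fabp5, Gfap and Slc1a3 and the genes listed as not called were named after their values were seen. Values of a few single genes of these lists are not reported here, and they remain in the counts and sums.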

Additional observations from a re-analysis of the deposited data

Results flagged for a closer look

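The batch 2 library, MIA LPS replicate 4, enters no comparison, and it held 4 of the 8 genes above the highest control saline library. Spp1 was at 44.9 CPM, against at most 2.94 CPM after saline in control offspring and 184 to 252 CPM in the other MIA LPS libraries. Gpnmb was at 8.40 CPM against at most 0.0768, Lgals3 at 18.7 CPM against at most 1.52, and Cst7 at 26.6 CPM against at most 3.53. So the same 4 genes as in batch 1 were high, Spp1 lower and the other 3 higher than in any batch 1 MIA LPS library. This library stood apart in other ways: its summed neutrophil markers (277 CPM) and monocyte markers (128 CPM) were above those of the 19 compared libraries, 12285 genes had a count against 18035 or more there, and 58.1% of counts lay in the ribosomal RNA gene. The part of these in its values was not tested. Batch holds this library alone, so batch and library cannot be told apart.

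Libraries far from the rest of their group were looked for in 23 pairs of gene and group, where chance gives about 1 in 20. Lpl in MIA saline replicate 1 was at 12.3 CPM, with 9.93 to 10.4 CPM in the other 4 libraries. Gpnmb in control saline replicate 4 was at 0.0768 CPM, which is 1 count, and at 0 in the other 5.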

How the results depend on the processing

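In each alternative run, the 8 genes kept the direction of their LPS change in both offspring groups, and Spp1, Gpnmb, Lgals3, Cst7 and Cd9 stayed called. Of the LPS values of the 8 genes, 221 of the control alternatives were on the same side of the threshold, 10 lost a call and 1 gained it. Among the MIA alternatives 219 were on the same side, 1 lost a call and 12 gained it. Genes far from the threshold make up most of these counts. Lpl in control offspring was lost with no filter (-0.54), no batch term (-0.54), the replicate block (-0.55) and the ID number block (-0.51), and leaving out 1 library gave -0.67 to -0.42. In MIA offspring Lpl was lost with no batch term (-0.65). Igf1 in MIA offspring was called with RLE scaling (-1.92), DESeq2 (-1.95), the excluded library kept in (-1.99), no batch term (-2.17) and the ID number block (-2.71), and ran from -4.75 to -1.32 over libraries left out. Replicate numbers did not pair the libraries: same-numbered LPS and saline libraries correlated at 0.028 to 0.111 in control and -0.136 to 0.094 in MIA offspring, and 2 of 5 and 1 of 3 LPS libraries correlated best with their own number. Libraries that share the second number of the ID label, whose meaning the labels do not give, correlated at -0.018 to 0.093 in control and 0.0020 to 0.205 in MIA offspring, and 1 of 5 and 2 of 3 correlated best with their own. With the replicate block Spp1 in control offspring was 7.85, and Apoe was called, at 0.46 in control and 0.71 in MIA offspring, and 6295 and 5540 genes were called in place of 6580 and 5765. Fitted values of Gpnmb in MIA offspring were 7.56 with DESeq2 and 8.84 with no batch term, and Igf1 there was -2.45 with limma-voom. The causes were not tested.

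Uncalled differences changed sign in places. For the difference of responses, Lgals3 was -0.53 with limma-voom and -0.0138 with the excluded library kept in, and Cd9 was -0.0081 with no batch term, while over libraries left out Lgals3 ran from -0.40 to 0.59, Apoe from -0.29 to 0.45 and Igf1 from -1.83 to 1.60. After saline, Spp1 was 0.26 with limma-voom and 0.13 with the replicate block, and Lgals3 0.31 with limma-voom, and over libraries left out Spp1 ran from -0.997 to 0.16, Lgals3 from -0.91 to 0.0788 and Gpnmb from -1.34 to 0.00. After LPS, Apoe was 0.0064 with limma-voom, Lpl 0.0501 with no batch term, Lgals3 0.0508 with no batch term and 0.0888 with the replicate block, and Igf1 -0.49 with limma-voom and -0.0354 with no batch term. Over libraries left out the after-LPS values ran from -0.66 to 0.0797 (Apoe), -0.88 to 0.0231 (Lgals3), -2.62 to 0.81 (Igf1), -0.10 to 0.88 (Gpnmb) and -0.0059 to 0.30 (Cst7). DESeq2 called 6 genes after saline, 3 higher and 3 lower. With 1 library left out, 0 to 2 genes were called for the difference of responses, 0 to 2 of them lower, and 0 to 4 after LPS, 0 to 3 higher and 0 to 4 lower. The cause was not tested. With 3 MIA LPS libraries and few counts of Gpnmb and Igf1, differences between offspring groups in those genes were not detectable unless several fold.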
